A study of Mus musculus with 16 samples.

Results

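The genes described here are 10 mouse genes, Fkbp5, Tsc22d3, Sgk1, Zbtb16, Klf9, Pdk4, Txnip, Arrdc3, Mt1 and Mt2, which glucocorticoid hormone is known to induce in many tissues, or which are often seen to move with such genes. They were taken by name from a list, and all 10 were among the 26477 features (named genes, or transcripts without a current symbol) that passed the filter on dim probes, out of 45616 on the array. The members were chosen by name after the signal differences of irradiated FD against FD had been seen, in which Txnip, Arrdc3 and Klf9 ranked high. In that comparison the members' values are therefore given as a description, without a test.

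RNA of the whole brain was measured in 16 C57BL/6 mouse pups on postnatal day 1, 4 in each of 4 groups, with 1 Agilent one-colour (Cy3) array per pup. The groups differ in the sperm that sired them. The first came from fresh spermatozoa. The second came from freeze-dried (FD) spermatozoa, the third from FD spermatozoa irradiated with 5 Gy of X-rays, and the fourth from FD spermatozoa held at 95 °C for 1 h. They are called fresh, FD, irradiated FD and heated FD below. The pups themselves received no treatment that the labels record, and freeze-drying is shared by the FD, irradiated FD and heated FD groups. The labels give no sex, litter, hour of collection or way of fertilisation. The neonate numbers of the heated pups all start with the same digits and those of the fresh pups fall into 2 such sets, and whether these mark litters is not given in the sources used here. The p-values measure the spread between these pups, which may be smaller than the spread between litters.

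Glucocorticoids (corticosterone in the mouse) bind the glucocorticoid receptor, which leaves its chaperones, enters the nucleus and switches on genes by binding a palindromic DNA element. Fkbp5, an immunophilin that lowers the receptor's affinity for hormone, Tsc22d3 (GILZ), an anti-inflammatory protein, and the kinase Sgk1 are widely used readouts of this response, and Klf9 and Zbtb16 are transcription factors among its targets. Pdk4, a kinase that shuts pyruvate out of the mitochondrion, is induced by fasting, by FoxO factors and by glucocorticoids. Txnip and Arrdc3 are arrestin-domain proteins: Txnip binds thioredoxin and lowers glucose uptake, and its promoter is known for responding to sugar through the factors MondoA and ChREBP. Mt1 and Mt2 are metallothioneins, small cysteine-rich proteins that bind zinc and copper, are made largely by astrocytes in the brain and are induced by metals through Mtf1 and by glucocorticoids.

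The stretches before the transcription starts of 4 members are shown as examples that hold elements of these inputs, as windows of other members do too. RefSeq (GRCm38.p6) gave 18 start sites for 9 of the 10 members, all except Zbtb16, and the 250 bases before each start were searched on both strands. The glucocorticoid receptor element was searched as AGAACA, any 3 bases and TGTTCT, and 1 arm of it as AGAACA, the E-box as CACGTG, the metal response core as TGCACNC or TGCGCNC, and the forkhead (FoxO) core as TGTTTAC. A pair of sugar-response boxes was searched as CACGAG, any 5 bases and CACGAG, letters taken from what is known of the Txnip promoter itself and added after the first search. Each full receptor element contains 2 arms. Capitals mark the matches, and each line is written 5′ to 3′ in the direction of transcription, which is the plus strand for all 4.
Sgk1, chr10:21993694-21993722, around the full receptor element: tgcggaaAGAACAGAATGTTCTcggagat
Txnip, chr3:96557707-96557956: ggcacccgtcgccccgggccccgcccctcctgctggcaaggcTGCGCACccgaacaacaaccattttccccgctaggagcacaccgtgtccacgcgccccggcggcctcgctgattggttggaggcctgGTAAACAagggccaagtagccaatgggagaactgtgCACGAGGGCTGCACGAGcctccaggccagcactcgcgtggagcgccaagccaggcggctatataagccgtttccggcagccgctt
Klf9, chr19:23140976-23141225: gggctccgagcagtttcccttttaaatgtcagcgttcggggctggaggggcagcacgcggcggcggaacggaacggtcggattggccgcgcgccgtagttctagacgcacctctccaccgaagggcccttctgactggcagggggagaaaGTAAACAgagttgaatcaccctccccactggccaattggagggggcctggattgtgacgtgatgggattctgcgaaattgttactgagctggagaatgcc
Mt2, chr8:94172368-94172617: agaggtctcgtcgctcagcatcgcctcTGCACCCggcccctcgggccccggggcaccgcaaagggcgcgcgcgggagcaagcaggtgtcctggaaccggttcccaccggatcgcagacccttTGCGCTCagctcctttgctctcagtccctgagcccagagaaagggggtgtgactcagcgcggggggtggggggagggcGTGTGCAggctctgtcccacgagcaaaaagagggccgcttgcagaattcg

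The Sgk1 line surrounds a full receptor element that lies 189 to 175 bases before 1 of the gene's 6 listed starts, the one at position 21993890. Only 3 of the 32851 promoter windows of all genes in the table (0.00913%) held such an exact element, and no other member's window did. The Txnip window held the pair of sugar-response boxes 85 to 69 bases before the start, a match fixed in advance by the choice of letters. None of the other windows held the pair. A forkhead core was also in the Txnip window and in the Klf9 window, there 100 to 94 bases before its start, against 3.17% of all windows. The Mt2 window held 3 metal response cores. At least 1 such core was in 5 of the 18 windows, of Mt2, Mt1, Txnip and Arrdc3, and in 21.4% of all windows. A single arm of the receptor element was found in 4 of the 18 windows, of Sgk1 and Tsc22d3, against 16.1% of all windows, and an E-box in a window of Fkbp5 and one of Sgk1, against 6.02%. These matches are descriptions of the sequence, and a window without a match says only that these letters are not in it.

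Each probe's signal was divided by its array's 75th percentile and is given as log2, so that 0 is the 75th percentile and a difference of 1 is a doubling. The 75th percentile itself was 720 to 958 units, and the scanner software marked 59.9% to 66.1% of an array's spots as well above background. The neuron markers were measured (5 of 5, 4 of them above background on every array), as were the 7 astrocyte markers, so the label of brain is borne out by its own genes. The arrays lay on 2 slides of 8, each scanned as a unit: fresh 1 and 2, all FD and irradiated FD 1 and 2 on slide 1, and fresh 3 and 4, irradiated FD 3 and 4 and all heated FD on slide 2. FD and heated FD therefore share no slide. In 4 arrays (fresh 2, FD 2, heated FD 2 and 4) the hindbrain and spinal cord gene Hoxb5 was not well above background (log2 -7.75 to -6.05, against -1.61 to 1.12 on the other 12). Pituitary signal was high in fresh 3, FD 1 and heated FD 1, muscle signal in fresh 1 and skin signal in FD 2. Y-linked signal was high in 2 fresh, 4 FD, 3 irradiated FD and 1 heated FD array.

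Txnip and Arrdc3 were the members that set the irradiated FD pups apart. Txnip had log2 signals of 3.61, 3.48, 3.64 and 3.68 in the 4 irradiated FD pups. It had 3.01, 2.95, 2.98 and 2.95 in the fresh pups, 3.05, 2.81, 3.33 and 3.10 in the FD pups and 3.08, 3.26, 3.14 and 3.05 in the heated FD pups. Every irradiated FD pup was thus above every pup of the other 3 groups, which overlapped one another except that all heated FD pups lay just above all fresh pups. Arrdc3, an adaptor for ubiquitin ligases that act on surface receptors, had 1.57, 1.47, 1.68 and 1.64 in the irradiated FD pups. It had 0.88, 1.02, 0.98 and 1.07 in the fresh, 1.17, 1.05, 1.36 and 1.22 in the FD and 1.22, 1.21, 0.98 and 1.15 in the heated FD pups. Again all irradiated FD values were above all others, and the other groups overlapped.

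Against fresh, Txnip was 1.55-fold higher in irradiated FD (log2 difference 0.63 ± 0.09, SE, n = 4 against 4, limma with Benjamini-Hochberg adjustment over all features, adjusted p = 0.00627). Arrdc3 was 1.52-fold higher (0.60 ± 0.08, limma, adjusted p = 0.00436). Against irradiated FD, both fell in heated FD, by 0.47 ± 0.09 for Txnip (limma, adjusted p = 0.0243) and by 0.45 ± 0.08 for Arrdc3 (limma, adjusted p = 0.0174). These comparisons use the same irradiated FD arrays as the one in which the genes were noticed, so their p-values are not independent of that choice. In heated FD against fresh the differences were 0.16 (95% interval -0.03 to 0.36) for Txnip and 0.15 (-0.01 to 0.32) for Arrdc3, and neither passed the test. A second Txnip probe gave 0.48 for irradiated FD against fresh and -0.50 for heated FD against irradiated FD. Within slide 1 the irradiated FD pups were above the fresh ones by 0.57 for Txnip and 0.57 for Arrdc3, and within slide 2 by 0.70 and 0.64. With so few arrays in a slide, only Txnip within slide 2 passed (limma, adjusted p = 0.0361).

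Both calls against fresh held when any 1 array was left out (adjusted p up to 0.0267 for Txnip and 0.0209 for Arrdc3). Without the 4 arrays low in Hoxb5 the differences of Txnip and Arrdc3 were 0.63 and 0.61, at adjusted p = 0.0519 for each. The fall in heated FD was less steady. For Txnip its adjusted p was 0.0517 to 0.0769 whenever any 1 of the 8 irradiated FD or heated FD arrays was left out, and for Arrdc3 it was 0.051 without irradiated FD 1, 0.0536 without irradiated FD 3 and 0.0536 without heated FD 3. Without the 4 arrays low in Hoxb5 the differences of Txnip and Arrdc3 there were -0.495 (adjusted p = 0.0814) and -0.49 (adjusted p = 0.12).

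**Figure D1:**
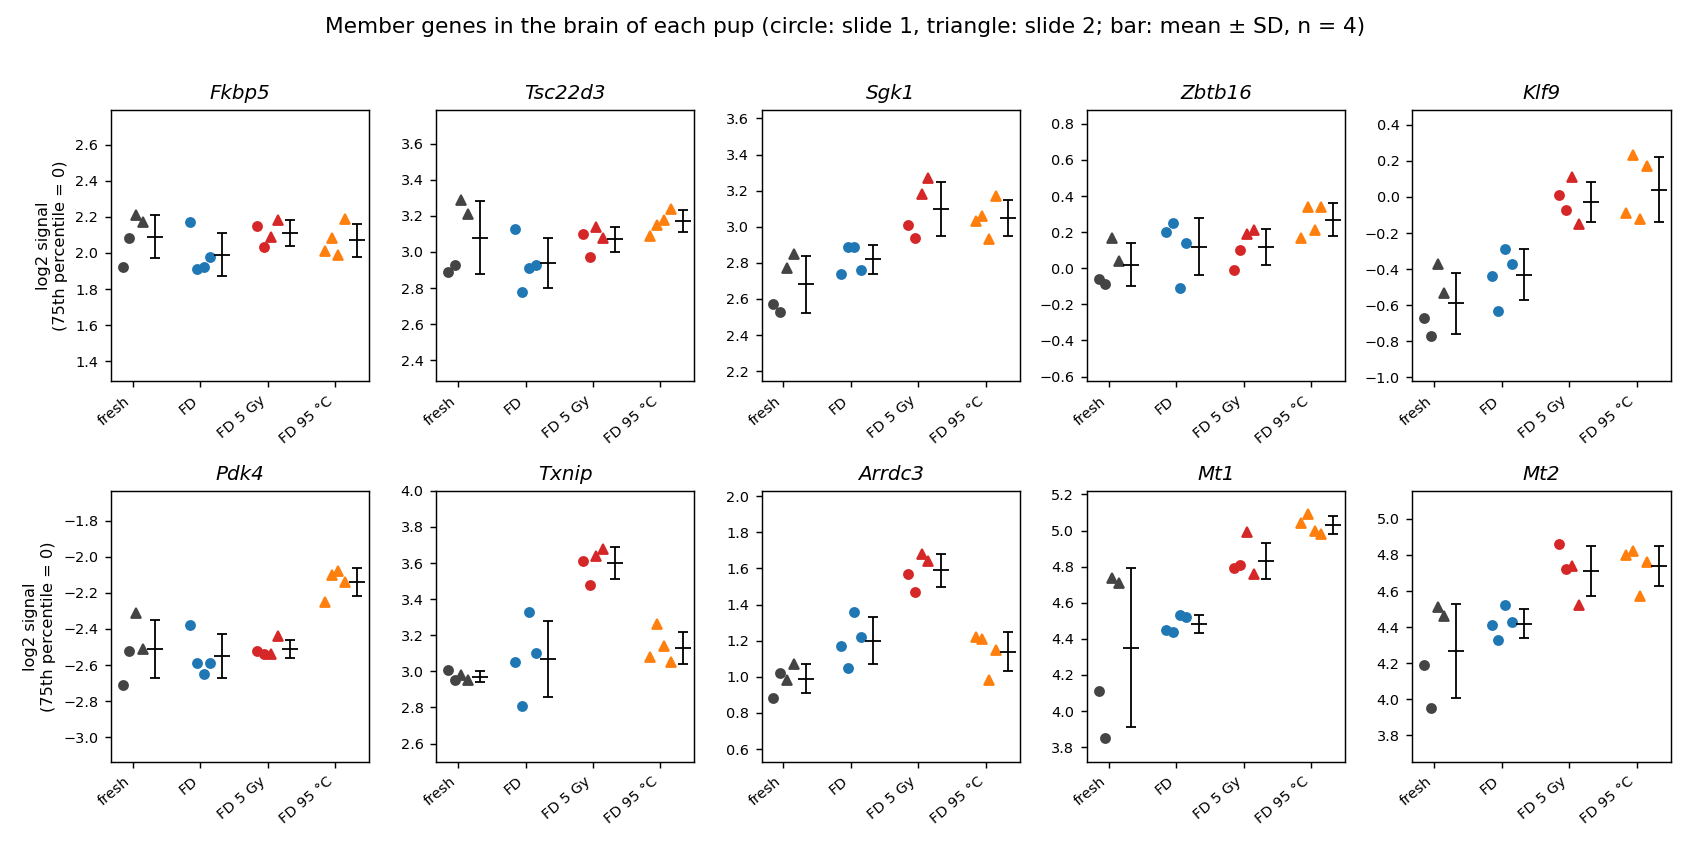
Log2 signal (75th percentile of the array at 0) of each of the 10 members in each pup, by group; circles are arrays of slide 1, triangles of slide 2, and the bars show mean ± SD of 4 pups. Txnip and Arrdc3 are high in the irradiated FD pups only, Pdk4 in the heated FD pups only, and Klf9 in both; the fresh pups of slide 1 are low for Mt1 and Mt2.

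Klf9, which encodes a zinc-finger transcription factor induced by glucocorticoid and by thyroid hormone, was higher after both treatments of FD sperm. It had -0.67, -0.77, -0.37 and -0.53 in the fresh pups and -0.44, -0.63, -0.29 and -0.37 in the FD pups. It had 0.01, -0.07, 0.11 and -0.15 in the irradiated FD and -0.09, 0.23, -0.12 and 0.17 in the heated FD pups. Each irradiated FD and heated FD pup was above each fresh and FD pup, whereas irradiated FD and heated FD overlapped, as did fresh and FD. Against fresh, Klf9 was 1.48-fold higher in irradiated FD (0.56 ± 0.11, limma, adjusted p = 0.0265) and 1.55-fold higher in heated FD (0.63 ± 0.11, limma, adjusted p = 0.00946). Against FD it was 1.39-fold higher in heated FD (0.48 ± 0.11, limma, adjusted p = 0.0293). Irradiated FD against fresh and heated FD against FD share arrays with the comparison in which Klf9 was noticed. Their p-values are not independent of that choice.

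The call of Klf9 in heated FD against fresh held without any 1 array (adjusted p up to 0.0384) and with slide as a block (0.56, adjusted p = 0.0359), and was lost within slide 2 (0.50, adjusted p = 0.197). In heated FD against FD it was lost with slide as a block (0.33, limma, adjusted p = 0.595), which there rests on the fresh and irradiated FD arrays alone. In that fit no feature at all passed in heated FD against FD. In the heated group Klf9 was highest in pups 2 and 4, both low in Hoxb5, and in the FD group it was lowest in pup 2, also low in Hoxb5. Without the 4 arrays low in Hoxb5 the Klf9 difference of heated FD from FD was 0.26 and from fresh 0.42. Neither passed (limma, adjusted p = 0.325 and 0.213). Of all 26477 features, 12 passed against FD without those arrays and none against fresh. Leaving out 1 array ended the call against FD for FD 1, FD 2, heated FD 2 and heated FD 4 (adjusted p 0.0604 to 0.0924), and the irradiated FD against fresh call for fresh 1, fresh 2 and irradiated FD 1, 2 and 3 (0.0628 to 0.0788).

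Zbtb16, a zinc-finger repressor that responds strongly to glucocorticoids in several tissues, did not pass in any comparison. Its values were -0.09 to 0.17 in the fresh, -0.11 to 0.25 in the FD, -0.01 to 0.21 in the irradiated FD and 0.17 to 0.34 in the heated FD pups. The heated FD group mean of 0.27 and the fresh mean of 0.02 differed by 0.25 (95% interval 0.06 to 0.44, limma, adjusted p = 0.139), with the lowest heated FD pup at the level of the highest fresh pup.

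Pdk4 was higher in the heated FD pups alone. It had -2.25, -2.10, -2.08 and -2.14 in them. It had -2.71, -2.52, -2.31 and -2.51 in the fresh, -2.38, -2.59, -2.65 and -2.59 in the FD and -2.52, -2.54, -2.54 and -2.44 in the irradiated FD pups. All 4 heated FD pups were above the other 12, and the other 3 groups overlapped. Pdk4 was 1.33-fold higher in heated FD than in FD (0.41 ± 0.08, limma, adjusted p = 0.0179), 1.29-fold higher than in fresh (0.37 ± 0.08, adjusted p = 0.026) and 1.29-fold higher than in irradiated FD (0.36 ± 0.08, adjusted p = 0.0488). In irradiated FD its differences were 0.01 (95% interval -0.17 to 0.18) from fresh and 0.05 (-0.13 to 0.22) from FD. With slide as a block the heated FD difference was 0.29 from FD, 0.31 from fresh and 0.30 from irradiated FD for Pdk4, and none passed (adjusted p = 0.467, 0.0936 and 0.135). Without the arrays low in Hoxb5 it was 0.37, 0.35 and 0.34, and again none passed (adjusted p = 0.249, 0.379 and 0.336). Of all alternative fits, the call held in 8 of 13 against FD, 5 of 14 against fresh and 4 of 14 against irradiated FD. Each of these calls was lost with normexp background correction and in the deposited table. Those against fresh and irradiated FD were also lost with quantile normalization and with a replicate block. The call against FD was lost without FD 2, heated FD 2 or heated FD 4 (adjusted p 0.0503 to 0.0618), that against fresh without fresh 1 or 2 or heated FD 2, 3 or 4 (0.0643 to 0.0842), and that against irradiated FD without any 1 of 13 arrays, all but fresh 1 and 3 and FD 1 (up to 0.151).

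Sgk1, a kinase that regulates ion channels and survival signalling, was higher than in fresh pups after both treatments. Its values were 2.57, 2.53, 2.77 and 2.85 in the fresh and 2.74, 2.89, 2.89 and 2.76 in the FD pups. They were 3.01, 2.94, 3.18 and 3.27 in the irradiated FD and 3.03, 3.06, 2.93 and 3.17 in the heated FD pups. Both treated groups lay above both untreated ones without overlap. The difference from fresh was 0.42 ± 0.09 in irradiated FD (limma, adjusted p = 0.0379) and 0.37 ± 0.09 in heated FD (limma, adjusted p = 0.0411). Sgk1 also differed between the slides, by 0.25 over the groups that lie on both (limma, adjusted p = 0.0247), and slide 2 was the higher one. With slide as a block the irradiated FD difference of Sgk1 from fresh stayed at 0.42 (adjusted p = 0.00554), the heated FD one was 0.24 (adjusted p = 0.0904), and the heated FD difference from FD went from 0.23 to -0.03. Sgk1's calls were lost when 1 of 9 arrays was left out for irradiated FD (adjusted p up to 0.103, fresh 1, 2 and 3, all irradiated FD, and heated FD 1 and 2) and 1 of 11 for heated FD (up to 0.127, all but fresh 3 and 4, FD 2 and irradiated FD 2 and 4).

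Fkbp5 and Tsc22d3, the feedback immunophilin and the GILZ gene, passed in no comparison. Fkbp5 ranged from 1.92 to 2.21 in the fresh, 1.91 to 2.17 in the FD, 2.03 to 2.18 in the irradiated FD and 1.99 to 2.19 in the heated FD pups, so that all groups overlapped. Its difference from fresh was 0.02 in irradiated FD (95% interval -0.15 to 0.19) and -0.02 in heated FD (-0.19 to 0.14), intervals that lie below the differences of 0.56 and 0.63 measured for Klf9. A second, dimmer Fkbp5 probe gave -0.39 for irradiated FD and -0.23 for heated FD against fresh, so the 2 probes disagree. Tsc22d3 ranged from 2.89 to 3.29 in the fresh, 2.78 to 3.13 in the FD, 2.97 to 3.14 in the irradiated FD and 3.09 to 3.24 in the heated FD pups. Its largest difference was 0.23 ± 0.09 for heated FD against FD (95% interval 0.03 to 0.43, limma, adjusted p = 0.154).

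Mt1 and Mt2 were highest in the treated groups, with a wide spread among the fresh pups. Mt1 had 4.11, 3.85, 4.74 and 4.71 in the fresh, 4.45, 4.44, 4.53 and 4.52 in the FD, 4.79, 4.81, 4.99 and 4.76 in the irradiated FD and 5.04, 5.09, 5.00 and 4.98 in the heated FD pups. Mt2 had 4.19, 3.95, 4.51 and 4.46, then 4.41, 4.33, 4.52 and 4.43, then 4.86, 4.72, 4.74 and 4.52, and then 4.80, 4.82, 4.57 and 4.76 in the same order. For both genes the low fresh pups were those of slide 1, pups 1 and 2. In heated FD against fresh, Mt1 was 1.59-fold higher (0.67 ± 0.15, limma, adjusted p = 0.0323) and Mt2 1.38-fold higher (0.46 ± 0.11, limma, adjusted p = 0.0407). In irradiated FD against fresh the differences were 0.48 (95% interval 0.15 to 0.82, adjusted p = 0.136) and 0.44 (0.19 to 0.68, adjusted p = 0.0698), limma.

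The slide moved with these values. The 2 fresh pups of slide 2 exceeded those of slide 1 by 0.75 for Mt1 and 0.41 for Mt2. Mt1 was one of 2 members, with Sgk1, that passed a test of slide (0.41, limma, adjusted p = 0.0479). Of all 26477 features, 1723 passed that test. Within slide 2 the heated FD pups exceeded the fresh ones by 0.30 for Mt1 and 0.26 for Mt2 (adjusted p = 0.185 and 0.302, limma), and with slide as a block the differences were 0.47 and 0.40 (adjusted p = 0.091 and 0.139). The irradiated FD difference of Mt1 from fresh passed with slide as a block (0.48, adjusted p = 0.0431), and it was 0.82 within slide 1 and 0.14 within slide 2. Leaving out fresh 1, fresh 2 or any 1 heated FD array ended the heated FD call of Mt1 (adjusted p 0.0657 to 0.0952), and leaving out any 1 of 10 arrays, all but fresh 3 and 4, FD 2, irradiated FD 1 and 4 and heated FD 3, ended that of Mt2 (up to 0.115). A much dimmer probe for a predicted Mt1 transcript (mean log2 -3.08, against 4.67 for the probe used) gave 1.31 for irradiated FD and 1.06 for heated FD against fresh. It also gave 0.76 for FD against fresh. For heated FD against irradiated FD it gave -0.25, where the probe used gave 0.19.

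Markers of 3 glial cell types were, like the metallothioneins, higher in the treated groups than in fresh, as a description without a test. The summed signal of the 7 astrocyte markers (1 unit is the 75th percentile) was 32.4 to 38.3 in the fresh, 34.4 to 40.9 in the FD, 37.4 to 41.7 in the irradiated FD and 38.4 to 44.5 in the heated FD pups, that of the 5 microglia markers was 9.78 to 12.6, 12.4 to 12.7, 13.1 to 14.6 and 14.1 to 15, and that of the 6 oligodendrocyte lineage markers was 23 to 25.4, 22.7 to 26.8, 26.2 to 28.1 and 26.6 to 27.8. All of these markers were above background on all 16 arrays. Neurons had another order. By the mean, meninges and choroid plexus were also above fresh in both treated groups, and in FD as well. From fresh to heated FD the mean log2 signal was 5.42, 5.34, 5.32 and 5.41 for neurons. It was 2.34, 2.51, 2.5 and 2.38 for meninges and 0.92, 1.18, 1.23 and 1.18 for choroid plexus. By that mean the endothelium markers also rose from group to group (0.61, 0.65, 0.66 and 0.69). Their summed signals overlapped, at 21.9 to 25.7, 23.3 to 26.4, 22.5 to 26.3 and 22.4 to 25 in the same order. The summed Y-linked signal was 0.0279 to 2.74 in the fresh, 2.03 to 3.05 in the FD, 0.0228 to 3.43 in the irradiated FD and 0.0355 to 1.84 in the heated FD pups. A further fit took the mean log2 signal of the 4 Y-linked genes as a covariate. With that covariate, 0 of the 10 members passed in heated FD against FD and in heated FD against irradiated FD. In irradiated FD against fresh 2 passed (Txnip and Arrdc3), and in heated FD against fresh 3 did (Klf9, Pdk4 and Mt1). The part of the astrocyte, microglia and oligodendrocyte signal in the members' differences was not tested. More or fewer cells of a type and more or less RNA per cell cannot be told apart in these whole-brain samples.

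Counted over the list, members passed in 4 of the 6 comparisons. In FD against fresh, 0 of 10 members passed limma's test and 1 (Arrdc3, 0.21, 95% interval 0.04 to 0.38) had an unadjusted p under 0.05. No feature at all passed there (0% of 26477), although 2634 had an unadjusted p under 0.05, and 0 members had groups without overlap, which 4.15% of all features showed. Irradiated FD against fresh had 4 of 10 members rising (Txnip, Arrdc3, Klf9 and Sgk1), where 1.37% of all features passed and 0.865% rose. There 62.9% of the features that passed rose, and 52% did after quantile normalization and 47.3% in the deposited table, with all 4 members rising in both. Groups did not overlap for 6 of 10 members, against 9.08% of all features. Heated FD against fresh had 5 of 10 rising (Klf9, Pdk4, Sgk1, Mt1 and Mt2), where 2.96% passed and 2.4% rose, and 6 of 10 without overlap, against 11.3%. Heated FD against FD had 2 of 10 rising (Klf9 and Pdk4), where 3.88% passed and 2.5% rose, and 5 of 10 without overlap, against 20.3%. Heated FD against irradiated FD had 1 rising (Pdk4) and 2 falling (Txnip and Arrdc3), where 1.01% passed and 0.536% rose, and 3 of 10 without overlap, against 13.1%. The median difference over the 10 members was 0.12 in FD against fresh, 0.43 in irradiated FD against fresh, 0.31 in heated FD against fresh, 0.23 in heated FD against FD and 0.05 in heated FD against irradiated FD. The medians over all features were 0.018, 0.032, 0.032, 0.018 and 0.004.

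These comparisons share arrays, so their counts are not independent of each other. Txnip, Arrdc3 and Klf9, which ranked high before the genes were chosen, are among the members counted in irradiated FD against fresh. Txnip and Arrdc3 are also among those counted in heated FD against irradiated FD. Both counts therefore follow in part from the choice of genes. Klf9 is also counted in heated FD against FD, which uses the same FD arrays as the comparison in which it was noticed. That count is not independent of the choice either. The list was drawn up with results of irradiated FD against FD known. In the comparison that chose it, irradiated FD against FD, the differences were 0.53 for Txnip, 0.40 for Klf9, 0.39 for Arrdc3, 0.35 for Mt1, 0.29 for Mt2 and 0.28 for Sgk1, each of these 6 without overlap between the groups, which 4.59% of all features showed. Tsc22d3 was at 0.13, Fkbp5 at 0.12, Pdk4 at 0.05 and Zbtb16 at 0. No feature passed there either (0% of 26477, 1907 with an unadjusted p under 0.05). Within slide 1, Txnip, Klf9, Arrdc3, Mt2, Mt1 and Sgk1 were at 0.47, 0.40, 0.32, 0.36, 0.32 and 0.16.

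**Figure D2:**
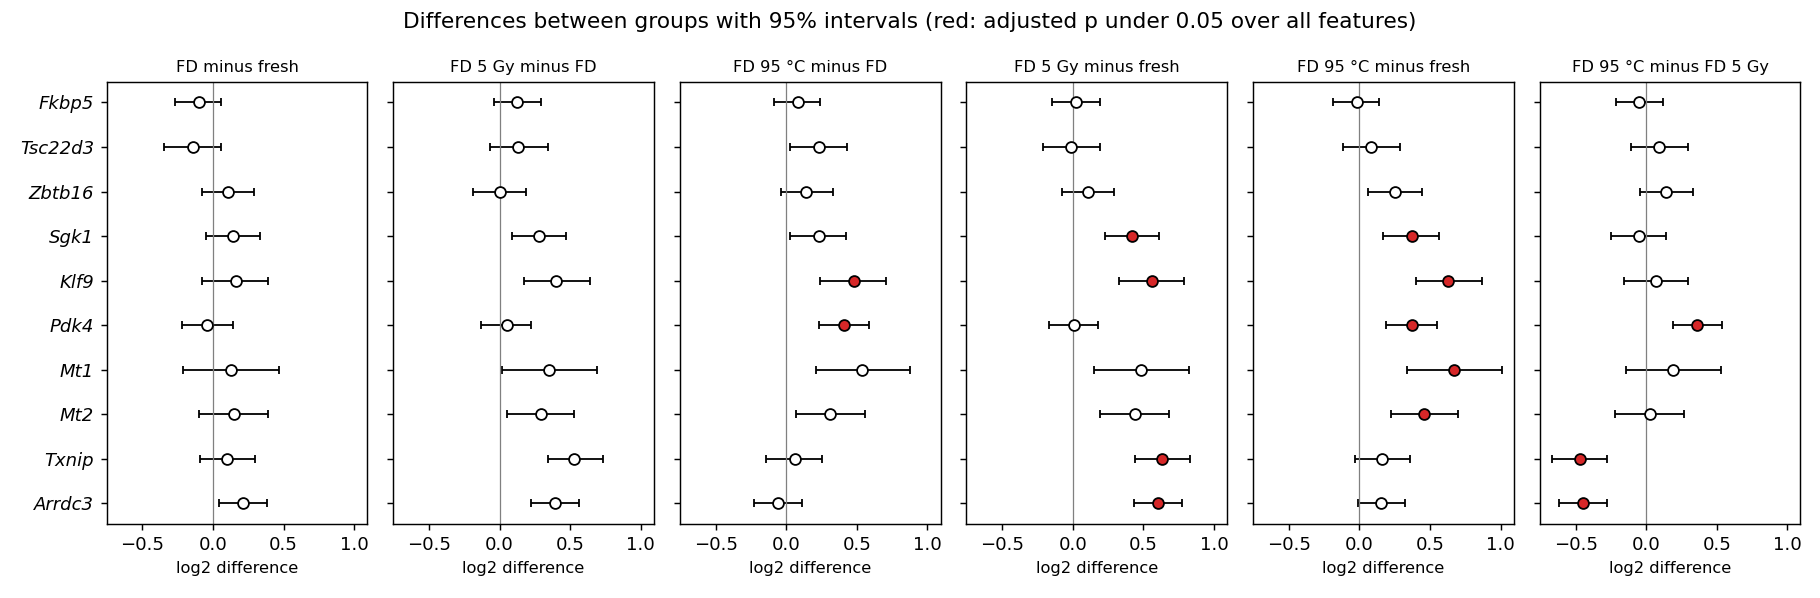
Log2 differences between groups (first named minus second) for the 10 members in the 6 comparisons, with 95% intervals from the limma fit; red points have an adjusted p under 0.05 over all features. Klf9 and Pdk4 rise in heated FD against FD, Txnip and Arrdc3 stand above 0 in irradiated FD against fresh and below 0 in heated FD against irradiated FD, and the points of the panel irradiated FD minus FD are a description since that comparison chose the genes.

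Genes that supply or sense the hormone were measured beside the members. Of 10 listed genes for receptors and ligand supply, 8 were measured. One of them, Hsd11b1, encodes the enzyme that regenerates active corticosterone inside cells. Its values were -3.16, -3.18, -2.98 and -2.87 in the fresh, -2.65, -2.83, -2.75 and -2.71 in the FD, -2.57, -2.55, -2.54 and -2.76 in the irradiated FD and -2.23, -2.39, -2.32 and -2.25 in the heated FD pups. All fresh pups lay below all FD pups and all heated FD pups above all others. Hsd11b1 was higher by 0.75 ± 0.08 in heated FD than in fresh (limma, adjusted p = 0.00211), the smallest p of all 26477 features in that comparison. It was also higher by 0.44 ± 0.08 in heated FD than in FD (adjusted p = 0.0112) and by 0.44 ± 0.08 in irradiated FD than in fresh (adjusted p = 0.0183). It did not pass in FD against fresh. The Hsd11b1 calls of heated FD held without any 1 array (adjusted p up to 0.00947 against fresh and 0.0412 against FD), and the one of irradiated FD was lost without fresh 2 or irradiated FD 1, 2 or 3 (0.0543 to 0.0652). The call of Hsd11b1 against FD was lost with slide as a block (0.36, adjusted p = 0.333), without the arrays low in Hoxb5 (0.43, adjusted p = 0.155) and in the deposited table (0.23, adjusted p = 0.999). That against fresh was lost within slide 2 (0.63, adjusted p = 0.11) and without the arrays low in Hoxb5 (0.73, adjusted p = 0.0665).

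The glucocorticoid receptor gene Nr3c1 rose by 0.25 ± 0.05 in irradiated FD against fresh (limma, adjusted p = 0.0374), from a mean of 1.32 ± 0.10 to 1.57 ± 0.04 (SD, n = 4). Its mean was 1.43 ± 0.04 in FD and 1.53 ± 0.05 in heated FD, and it passed in no other comparison. The Nr3c1 call was lost in 9 of the 16 fits without 1 array (adjusted p up to 0.112): fresh 1 and 2, all irradiated FD, and heated FD 1, 2 and 3. Of 15 alternative fits the call held in 6, and its adjusted p (limma) reached 0.341. It was lost, among others, with normexp background correction, with a replicate block and within either slide. The mineralocorticoid receptor gene Nr3c2 had means of -3.85 ± 0.35 in fresh, -3.90 ± 0.42 in FD, -3.68 ± 0.24 in irradiated FD and -3.23 ± 0.18 in heated FD, and passed in none. Hsd11b2, whose enzyme inactivates corticosterone, had no probe that passed the filter.

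Among 11 receptor chaperones and coregulators, all measured, 1 fell and 0 rose in each of the comparisons of irradiated FD and heated FD with fresh. Of all features, 1.37% and 2.96% passed in these comparisons. The gene that fell was Fkbp4, the immunophilin that helps carry the receptor to the nucleus. Its mean was 1.78 in fresh, 1.62 in FD, 1.55 in irradiated FD and 1.49 in heated FD. It fell by 0.23 ± 0.05 in irradiated FD (limma, adjusted p = 0.0482) and by 0.29 ± 0.05 in heated FD (limma, adjusted p = 0.0122). The first of these Fkbp4 calls was lost without any 1 of 13 arrays (adjusted p up to 0.115, all but fresh 4 and FD 1 and 4), and the second held in all 16 fits (up to 0.0469). The second Fkbp4 call was lost with normexp background correction (-0.32, adjusted p = 0.0974), within slide 2 (-0.25, adjusted p = 0.15), with only the 2 groups in the fit (adjusted p = 0.0937) and without the arrays low in Hoxb5 (-0.26, adjusted p = 0.232).

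Of 33 further genes known as glucocorticoid targets, all measured, 2 rose in irradiated FD against fresh, where 0.865% of all features rose, and 3 in heated FD against fresh, where 2.4% rose. Cebpd, a transcription factor of the acute phase response, rose in both, by 0.41 ± 0.08 in irradiated FD (limma, adjusted p = 0.0243) and 0.33 ± 0.08 in heated FD (adjusted p = 0.0339). Nfkbia, the inhibitor of NF-κB, rose in irradiated FD (0.29, adjusted p = 0.0469) and is named because the count is small, after its value was seen. Il6ra, the interleukin-6 receptor (0.40, adjusted p = 0.024), and Bcl6, a transcriptional repressor (0.35, adjusted p = 0.0275), rose in heated FD. In heated FD against FD, 1 fell, the hypoxia factor Hif3a (-0.37, adjusted p = 0.0467), and 0 rose, a share near the 3.88% of all features that passed there. The medians of the 33 genes were 0.102 and 0.081 in irradiated FD and heated FD against fresh and -0.003 in heated FD against FD, beside 0.032, 0.032 and 0.018 over all features. Per1, a clock gene that glucocorticoid induces directly, had means of 2.59 ± 0.09, 2.51 ± 0.09, 2.64 ± 0.05 and 2.70 ± 0.12 from fresh to heated FD and passed in no comparison. Each of these calls was lost without some arrays: Cebpd without fresh 1 or 2 or irradiated FD 1, 3 or 4 (adjusted p up to 0.0748) and, in heated FD, without fresh 1, 2 or 4 or heated FD 2, 3 or 4 (up to 0.11). Bcl6 lost its call without fresh 1 or 2 or heated FD 2 or 4 (up to 0.0931) and Il6ra without fresh 1 or 2 or heated FD 1 or 2 (up to 0.0785). Nfkbia lost it without any 1 of 13 arrays, all but FD 1 and 2 and heated FD 4 (up to 0.115), and Hif3a without any 1 of 11, all but the 4 fresh arrays and irradiated FD 1 (up to 0.117).

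**Figure D3:**
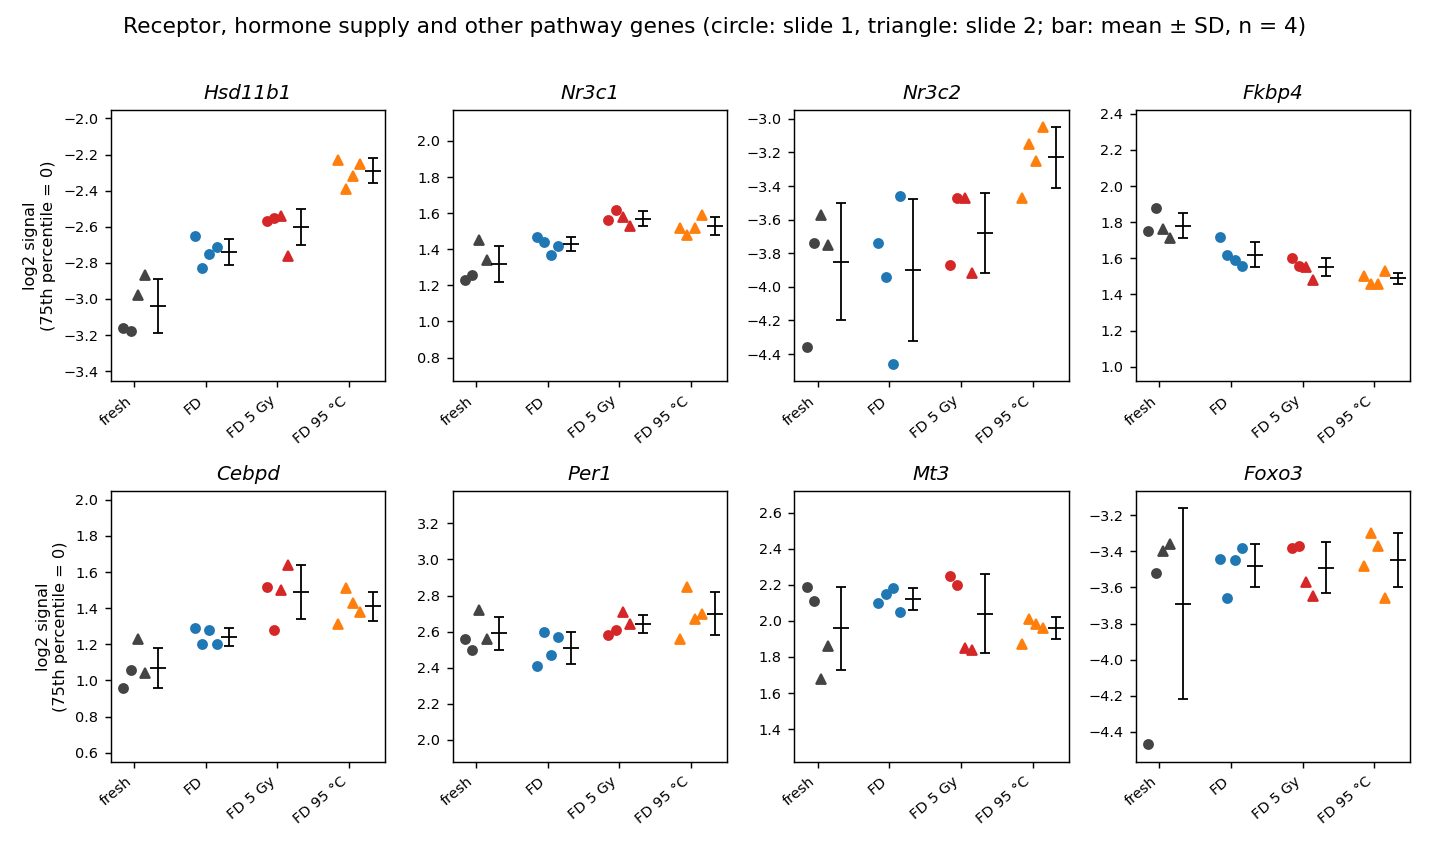
Log2 signal (75th percentile of the array at 0) of 8 genes around the hormone pathway in each pup, by group; circles are arrays of slide 1, triangles of slide 2, and bars show mean ± SD of 4 pups. Hsd11b1 has means of -3.04, -2.74, -2.60 and -2.29 from fresh to heated FD, Fkbp4 falls from 1.78 to 1.49, and Per1 stays between 2.41 and 2.85.

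The genes that work with Txnip were few, which limits what their count can show. Of 16 measured genes of its circuit (thioredoxins, sugar-sensing factors, glucose transporters and other arrestin-domain genes), limma called 0 in irradiated FD against fresh, where 1.37% of all features passed. An unadjusted p under 0.05 was found for 1 of them and for 4474 of the 26477 features, and their median was -0.032, beside 0.032 over all features. Arrdc4, the relative of Txnip best known for the same response to sugar, had means of 1.04 ± 0.07 in fresh, 1.08 ± 0.21 in FD, 0.95 ± 0.11 in irradiated FD and 1.22 ± 0.12 in heated FD. Mlxip (MondoA) had means of -0.48 ± 0.21, -0.46 ± 0.13, -0.53 ± 0.04 and -0.76 ± 0.14 in the same order. Mlxipl (ChREBP) had 1.59 ± 0.32, 1.65 ± 0.35, 1.77 ± 0.20 and 1.62 ± 0.23. These 3 genes passed in no comparison. Txn1, the thioredoxin that Txnip binds, rose by 0.33 in heated FD against FD (limma, adjusted p = 0.0463), the 1 call of the circuit. In that comparison 3.88% of all features passed. The Txn1 call was lost without any 1 of 12 arrays, all but fresh 1, 2 and 3 and FD 3 (adjusted p up to 0.108).

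Of 17 measured FoxO and fasting genes, 3 rose in heated FD against fresh, where 2.4% of all features rose: Pdk1, another kinase of pyruvate dehydrogenase (0.42, adjusted p = 0.0383), Bnip3, a mitophagy receptor (0.34, adjusted p = 0.0185), and Bcl6, which both lists hold. Against FD, Pdk1 rose in heated FD (0.39, limma, adjusted p = 0.0444) and Sesn1, a stress-induced inhibitor of mTORC1, fell (-0.27, limma, adjusted p = 0.019). There 3.88% of all features passed. The factors Foxo1 and Foxo3 themselves passed in no comparison, with means from 1.23 ± 0.10 in fresh to 1.54 ± 0.15 in heated FD for Foxo1 and from -3.69 ± 0.53 to -3.45 ± 0.15 for Foxo3. Bnip3 lost its call without fresh 2 or heated FD 2 or 3 (adjusted p up to 0.0681) and Sesn1 without FD 2 or heated FD 2 or 4 (up to 0.0618). Pdk1 lost both of its calls without any 1 of 10 arrays (up to 0.116 against fresh, all but fresh 3 and 4, FD 2 and 4 and irradiated FD 1 and 4; up to 0.122 against FD, all but the 4 fresh arrays and irradiated FD 1 and 4).

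Among 8 other metal and metallothionein genes, all measured, Slc39a4, a zinc importer, rose in heated FD against fresh (0.59, limma, adjusted p = 0.0128). There 2.4% of all features rose. Slc39a4 also rose without any 1 array (limma, adjusted p up to 0.0469). The Slc39a4 call was lost within slide 2 (0.62, adjusted p = 0.191), with only the 2 groups in the fit (adjusted p = 0.0915), without the arrays low in Hoxb5 (0.46, adjusted p = 0.302) and in the deposited table (0.49, adjusted p = 0.0566). The metal-sensing factor Mtf1 had means of 1.95 ± 0.10, 1.96 ± 0.07, 1.95 ± 0.06 and 2.10 ± 0.06 from fresh to heated FD. The metallothionein Mt3, made mainly in the nervous system, had 1.96 ± 0.23, 2.12 ± 0.06, 2.04 ± 0.22 and 1.96 ± 0.06. Neither passed in any comparison.

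Klf9 also answers to thyroid hormone, and that axis was listed with 6 genes, all measured. Heated FD pups had more Dio2 signal than fresh pups, for the enzyme that activates the hormone (0.55, adjusted p = 0.0185), and more of the receptor gene Thrb (0.58, adjusted p = 0.0141), and Dio3, whose enzyme inactivates the hormone, fell (-0.40, adjusted p = 0.0268). Against FD, Dio2 (0.46, adjusted p = 0.0378) and Thrb (0.45, adjusted p = 0.0376) rose as well, all by limma. Dio2 was highest in heated FD 2 and 4, at 0.85 and 0.73 against 0.30 and 0.44 in pups 1 and 3, and so was Thrb, at -2.30 and -2.25 against -2.55 and -2.57. Those are the heated FD arrays low in Hoxb5, and without the 4 such arrays no call of Dio2, Thrb or Dio3 remained. Of all features, 2.96% passed in heated FD against fresh and 3.88% in heated FD against FD. In irradiated FD against fresh limma called 0 of the 6, where 1.37% of all features passed. An unadjusted p under 0.05 was found there for 1 of the 6 and for 4474 of the 26477 features. The calls against fresh were lost without heated FD 2 for Thrb (adjusted p = 0.0522), heated FD 2 or 4 for Dio2 (up to 0.0591), and fresh 2 or 4 or heated FD 1, 2 or 3 for Dio3 (up to 0.0752). Those against FD were lost without FD 1, 2 or 4, irradiated FD 3 or heated FD 1, 2 or 4 for Thrb (up to 0.108), and any 1 FD array or heated FD 2, 3 or 4 for Dio2 (up to 0.107).

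Of 12 clock output genes, Nr1d1, a repressor of the clock, rose in irradiated FD against fresh (0.58, limma, adjusted p = 0.0326), where 0.865% of all features rose. Ciart, another clock repressor, rose in heated FD against FD (0.68, limma, adjusted p = 0.00981) and against fresh (0.49, limma, adjusted p = 0.0339). In these 2 comparisons 2.5% and 2.4% of all features rose. The first Ciart call held without any 1 array (up to 0.0365) but not without the 4 arrays low in Hoxb5 (0.60, adjusted p = 0.145) or in the deposited table (0.38, adjusted p = 0.999), and the second was lost without fresh 1, 3 or 4 or heated FD 2, 3 or 4 (up to 0.109). That second call was also lost with normexp background correction, with quantile normalization and in the deposited table. Ciart signal was low, with means of -4.31 in fresh, -4.51 in FD and -3.82 in heated FD. Nr1d1 lost its call without fresh 1, 2 or 3 or any 1 irradiated FD array (up to 0.0865). With slide as a block no call of heated FD against FD remained among any of these lists, nor among all 26477 features.

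Pups of the same group also differed from one another, and the members' deviations from their group means were compared over the 16 pups. Of 45 pairs, 41 had a positive Pearson r and 4 a negative one. The share of positive pairs among other genes was not computed, so this count is only a description. Permuting values within groups (100000 resamples, two-sided, Benjamini-Hochberg over the 45 pairs), 2 pairs passed. Fkbp5 and Tsc22d3 had r = 0.83 (permutation p = 0.00075, adjusted p = 0.0335; Spearman's rho = 0.82, permutation p = 0.00116, adjusted p = 0.0495). Without the 2 pups farthest from the median r was 0.73. Klf9 and Mt2 had r = 0.77 (permutation p = 0.00149, adjusted p = 0.0335; rho = 0.76, permutation p = 0.0022, adjusted p = 0.0495), and 0.72 without the 2 farthest. Mt1 and Mt2 had r = 0.83 and Fkbp5 and Pdk4 r = 0.79, which did not pass (permutation, adjusted p = 0.0764 and 0.0648). Txnip and Arrdc3 had r = 0.64 (permutation p = 0.0375, adjusted p = 0.211; rho = 0.43, permutation p = 0.161, adjusted p = 0.36), and r = 0.29 without the 2 farthest pups, so the relation within groups rests on those pups.

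The slide bears on these relations. With the slide's mean taken out as well, permuting within group and slide, no pair passed by Pearson and 1, Klf9 and Mt2, passed by Spearman (rho = 0.71, permutation p = 0.00097, adjusted p = 0.0436). Pearson's r was 0.79 for Fkbp5 and Tsc22d3 (permutation, adjusted p = 0.158), 0.74 for Klf9 and Mt2 (adjusted p = 0.0666) and 0.92 for Mt1 and Mt2 (adjusted p = 0.158). Without the 4 arrays low in Hoxb5 no pair passed by either measure, with r = 0.90 and 0.78 for the first and second pair over 12 pups (permutation, adjusted p = 0.151 for each).

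**Figure D4:**
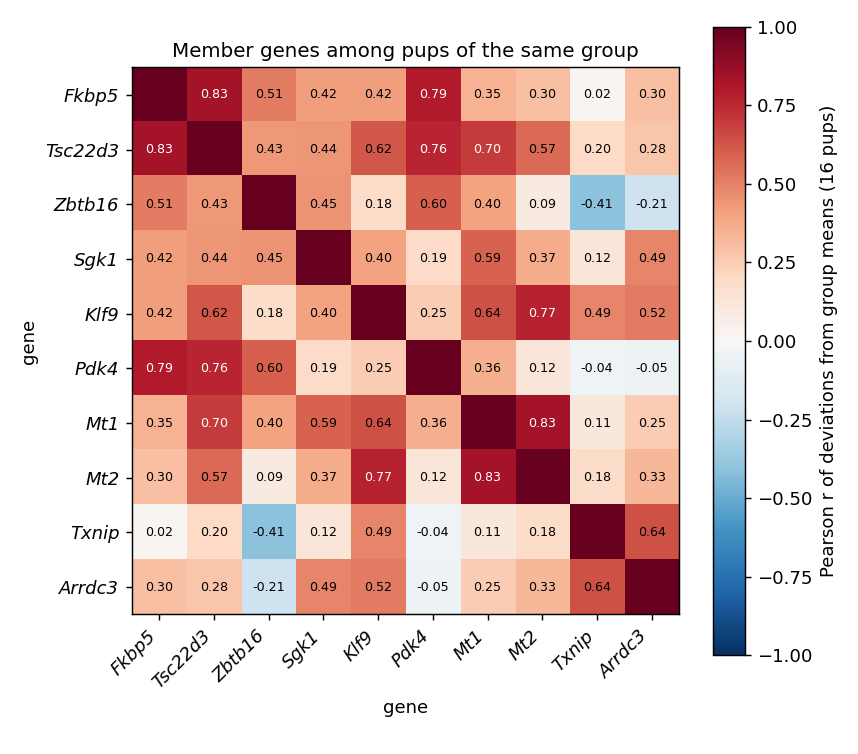
Pearson r between the deviations of 10 members from their group means over 16 pups, on a scale from -1 (blue) to 1 (red), with both axes listing the genes. Fkbp5 with Tsc22d3 (0.83) and Klf9 with Mt2 (0.77) are the 2 pairs that passed, and the values of 0.83 for Mt1 with Mt2, 0.79 for Fkbp5 with Pdk4 and 0.64 for Txnip with Arrdc3 did not pass.

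The genes whose deviations were most like those of 4 members were named over the same 16 pups from 15963 genes, as a description without a test, since depth, slide and dissection are shared by all genes of a pup. For Klf9 they were Mctp1 (r = 0.90), Cracdl (0.89), 1600029I14Rik (0.87), Omd (0.86) and Cpne7 (0.85). For Txnip they were Tmem169 (0.85), Il13ra2 (0.84), Rbm22 (0.81), Map2 (0.81) and Lin7a (0.80). For Fkbp5 they were Nelfcd (0.97), Sh3yl1 (0.94), Eral1 (0.93), Pgls (0.92) and Clptm1l (0.91). For Mt1 they were Kif17 (0.95), Spg7 (0.93), Snora47 (0.93), Stum (0.92) and Raver2 (0.92). No member of the 10 was among these 20 genes.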

How the data were processed

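The deposited files are 1 Agilent Feature Extraction output per array (version 11.0.1.1, per the submitters' processing notes), with the processed intensity of each spot, background-subtracted and detrended per the file headers. The deposited table of log2 values holds 31313 probes, with column medians of 9.335 to 9.348. Their scale was taken from the range of values, and how the authors normalized them is not given in the sources used here. Here, 75 spot values flagged as non-uniform were left out, spots of a probe averaged as log2 intensity and scaled to the array's 75th percentile. A probe was kept if well above background on all 4 arrays of a group (34261 probes in all), with a gene read from its brightest probe (15 probes for the 10 members, 14 above background on all arrays). No spot was saturated. Group means were fitted over all 16 arrays (limma 3.58.1, R 4.3.3, 12 residual degrees of freedom), with Benjamini-Hochberg adjustment over 26477 features and a threshold of 0.05. On simulated data for heated FD against FD (26477 genes), 57% of changes of 0.5 and 80% of changes of 1 (log2) were recovered, with 6 false among 143 calls. The simulated noise was independent between genes and held no slide or dissection difference, whereas FD and heated FD share no slide. These shares therefore do not carry over to the calls on the real arrays. The number of arrays limits the precision.

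Members and lists were chosen with earlier results of these data known. Beside the members, the text names the receptors, Per1, Mt3, Mtf1, the sugar-sensing factors, Arrdc4, Foxo1 and Foxo3, up to 4 genes per list with the smallest adjusted p among those that passed, and 5 most alike genes for 4 members. The normexp alternative used median signals. Correlations used Python 3.11.15 with scipy 1.17.1.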

Additional observations from a re-analysis of the deposited data

How the results depend on the processing

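In FD against fresh and in irradiated FD against FD, 0 members passed under every alternative and without any 1 array. The other counts of members passing were 2 in heated FD against FD, 4 in irradiated FD against fresh, 5 in heated FD against fresh and 3 in heated FD against irradiated FD. In that order they were 1, 2, 1 and 1 with no filter on dim probes, which raises the number of features adjusted over; 0, 2, 3 and 0 with Y-linked signal as a covariate; and 0 in all 4 without the arrays low in Hoxb5, which leaves 12 arrays. Over all 26477 features, 12, 0, 0 and 19 passed without those arrays. With slide as a block the member counts were 0 in heated FD against FD, where no feature passed, and 1 in heated FD against fresh. Within slide 1 the count was 0 in irradiated FD against fresh, and within slide 2 it was 1 there and 0 in heated FD against fresh. In both of these fits with a count of 0, no feature passed. With only the 2 groups compared in the fit the member count was 4, 2 and 0 for the first 3. In heated FD against FD, 0 members and no other feature passed from the deposited log2 table. That table gave 3 members in heated FD against fresh and 6 in irradiated FD against fresh, where Mt1 and Mt2 passed too (limma, adjusted p = 0.0209 and 0.0288). Slide as a block gave 5 there, with Mt1. The causes were not tested. Without 1 array the counts were 0 to 3, 2 to 5, 1 to 5 and 0 to 3, and the correlated pairs, 2 in all, were 0 to 5 (an alternative chosen after seeing the data).

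The replicate numbers did not pair the samples (same-numbered arrays of different groups had r = -0.39 to 0.38, median 0.03), and a replicate block gave 3 in heated FD against fresh and moved no other count by over 1.5 times. Pairs passing by Pearson were 0 with slide removed (1 by Spearman, Klf9 and Mt2), with quantile normalization and without the arrays low in Hoxb5.

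Of 60 member differences, the 45 larger than their standard error were followed, a limit set after seeing the data. None of these changed sign without 1 array, and 10 of 629 values under alternatives did. With slide as a block heated FD against FD became -0.04 for Fkbp5, -0.026 for Sgk1 and -0.025 for Zbtb16, and heated FD against irradiated FD -0.009 for Tsc22d3 and -0.012 for Mt1. Fkbp5 in heated FD against FD was -0.019 without the arrays low in Hoxb5 and -0.003 in the deposited table. With probes averaged, Fkbp5 in irradiated FD against FD was -0.003 and Mt1 in heated FD against irradiated FD -0.029. Tsc22d3 in FD against fresh was 0.026 within slide 1. Of the other 15 differences, 34 of 211 values under alternatives changed sign and 20 of 240 without 1 array, and 0 were ever called. The scaling to averaged probes and the outlier flag were set after the counts of called features had been seen: taking the percentile over spots, or leaving out population outlier spots too (2043 values), gave the same member counts in all 6 comparisons.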
